A study of Mus musculus with 12 samples.

Results

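The comparison described here is that of wild-type fetal testes between a pair of inbred mouse backgrounds, 129Sv and B6. It rests on 6 of the 12 Affymetrix arrays in the study, namely the 3 labelled 129Sv wild type and the 3 labelled B6 wild type, all of testes at E15.5. The other 6 arrays, 3 of Dmrt1 knockout testes in each background, entered the estimate of the spread and served as samples that the wild-type contrast did not use. No group received a treatment according to the labels, and every array carried total RNA labelled with biotin. The labels name no allele, Cre line or litter for the wild types, and the titles write 129Sv as S6 without explaining the code. The number before that code, of unstated meaning, is 11, 7 and 11 in the 129Sv wild types, 7 in the 129Sv knockouts and 10 in every B6 sample except B6 wild type 3, which has none. The labels also do not say whether the 3 arrays of a group came from separate animals or pools. The p-values therefore measure the spread between these samples, which may be technical. The growth protocol gives an age of P28, which goes against the E15.5 of the other labels; E15.5 was followed.

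At this stage the germ cells of a male mouse fetus are prospermatogonia, which leave the cell cycle in G1, switch off the pluripotency programme and load the piRNA machinery that guides DNA methylation of transposons. Meiosis genes are partly transcribed in these cells long before meiosis begins. The 129 strains are known for testicular teratomas that arise from germ cells of this age, whereas B6 rarely forms them, so strain differences in germ cell genes are of interest. Around the germ cells lie Sertoli cells, fetal Leydig cells, peritubular and interstitial cells, vessels and macrophages.

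On the 6 wild-type arrays, 51.1% to 52.2% of probe sets had an intensity of 16 or more. The log2 values of all probe sets correlated at 0.995 to 0.998 between 129Sv arrays, 0.990 to 0.995 between B6 arrays and 0.978 to 0.990 between strains. Actb probe sets at the 3′ and 5′ ends of the transcript give a ratio that rises as RNA degrades, and it was 2.71, 3.91 and 2.50 in 129Sv and 2.42, 1.99 and 2.47 in B6. These ratios did not overlap (means 3.04 and 2.29, two-sided exact permutation p = 0.1, the smallest that 3 against 3 can give), and with the ratio as a covariate, chosen after seeing the data, 2496 genes were called in the comparison below. The last number of the sample titles, of unstated meaning, runs from 4 to 6 in B6 and is 7, 8 and 12 in 129Sv, so an order of processing, if it is one, cannot be told apart from strain. Dmrt1, the gene removed in the knockouts, did not differ detectably between the wild types (0.09 ± 0.17 on the log2 scale, limma adjusted p = 0.777), with intensities of 1183, 924 and 1014 on the 129Sv arrays and 795, 1092 and 1066 on the B6 arrays.

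Of 12726 genes with a usable signal, 2054 differed between the strains at a limma adjusted p under 0.05, which is 16.1% of those tested. Among them 1393 (10.9% of all tested) were higher in 129Sv and 661 (5.19%) were higher in B6, so 67.8% of the calls pointed to 129Sv. The median log2 difference of all tested genes was 0.06. Called genes had a median absolute log2 difference of 0.83. For 269 of them the mean of the lower strain, under an intensity of 16, was raised to 16 for the ratio. That intensity was taken as the lower limit of a usable signal. Where both means were under 16 the ratio of the means was kept, as for Cdhr1 (1.10-fold, not called). Any called gene of that kind enters the counts below on values with no sure order. On that basis 628 called genes reached 2-fold, 423 higher in 129Sv and 205 higher in B6, and 8-fold was reached by 10 genes in favour of 129Sv and 8 in favour of B6. Arrays of the strains did not overlap for 2035 of the 2054 called genes and for 5184 (40.7%) of all tested genes. The count depended on single arrays: it was 1074 without 129Sv array 2, 1292 without 129Sv array 3, 1106 without B6 array 1 and 1278 without B6 array 2.

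**Figure D1:**
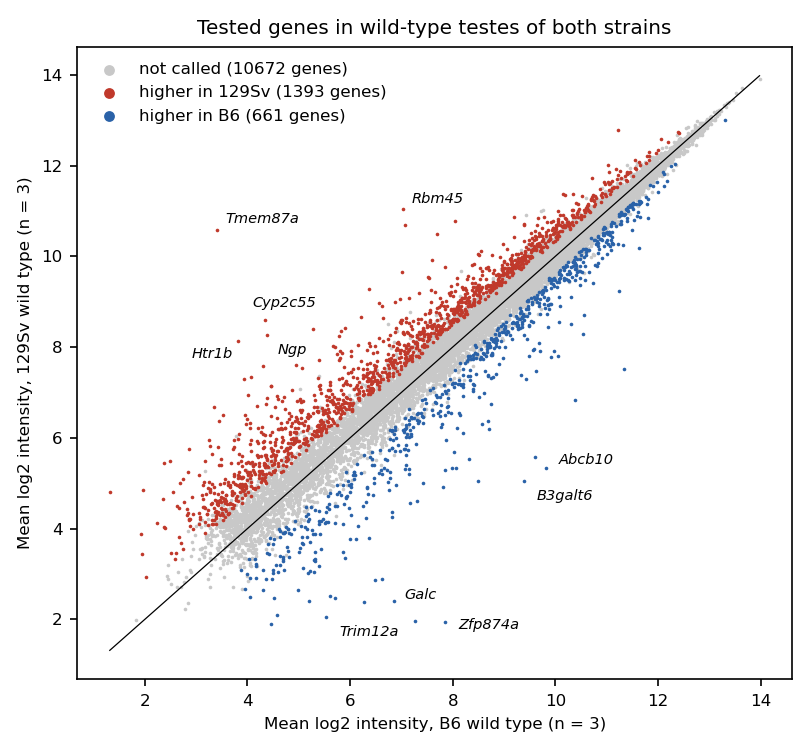
Mean log2 intensity of each of the 12726 tested genes in B6 (x axis) and 129Sv (y axis) wild-type testes, 3 arrays each, with equality as the line. Red points are the 1393 genes called higher in 129Sv and blue points the 661 called higher in B6; the 5 genes with the largest difference in each direction are named.

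The leading genes were ordered by log2 difference, which for genes under 16 in one strain rests on values with no sure order. Of the 15 in favour of 129Sv, 7 were of that kind and have only a bound; the order among the 15 is therefore not a result. Tmem87a, which encodes a membrane protein of the Golgi, gave intensities of 1555, 1563 and 1505 on the 129Sv arrays and 8.12, 11.5 and 12.9 on the B6 arrays, a ratio of at least 96.3-fold (log2 difference 7.18 ± 0.21, SE, n = 3 arrays per strain, limma adjusted p = 3.44e-11). Every B6 array lay below the intensity of 16 at which a signal was counted as usable. Ratios were taken between means on the log2 scale, and "at least" marks those where the lower mean was under 16 and was replaced by 16. Rbm45, an RNA-binding protein gene, read 1952, 2242 and 2138 on the 129Sv arrays and 97.1, 182 and 126 on the B6 arrays (16.1-fold, 4.01 ± 0.35, adjusted p = 3.33e-06). Cyp2c55, a cytochrome P450 gene, read 334, 469 and 378 on the 129Sv arrays and 13.2, 20.6 and 30.4 on the B6 arrays (19.3-fold, 4.27 ± 0.41, adjusted p = 8.73e-06). For each of these genes the lowest 129Sv array stood far above the highest B6 array, though leading genes were chosen to have no overlap.

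Htr1b, which encodes a serotonin receptor, read 304, 337 and 216 on the 129Sv arrays and 14.8, 16.3 and 11.4 on the B6 arrays (at least 17.5-fold, 4.32 ± 0.47, limma adjusted p = 3.43e-05). Ngp, a granule protein gene of neutrophils, read 164, 454 and 393 on the 129Sv arrays and 97.4, 9.79 and 9.39 on the B6 arrays, and its groups came close, with B6 array 1 well above the other B6 arrays (14.9-fold, 3.89 ± 0.97, adjusted p = 0.014). Polr3gl, a subunit gene of RNA polymerase III, was 12.3-fold higher in 129Sv, and Gchfr, the feedback regulator of GTP cyclohydrolase, 9.62-fold. The seminal vesicle secretory gene Svs4 was at least 9.83-fold higher, Phyhip at least 6.45-fold, the immunoglobulin superfamily gene Igsf23 9.73-fold and the dynein heavy chain gene Dnah8 at least 5.69-fold. Mpzl3 was 7.70-fold higher, Smco2 at least 2.83-fold, and Meiob, which encodes a DNA-binding protein of meiotic recombination, at least 2.72-fold. The bounds of Smco2 and Meiob are smaller than the ratios of genes measured in both strains and not among the 15, such as Rph3a (5.71-fold). Camp, the cathelicidin gene of neutrophils, completed the 15 leading genes at 8.80-fold. Leaving out 1 array ended the call of Ngp (without 129Sv array 2 or B6 array 2 or 3, adjusted p 0.0525 to 0.0689) and Camp (without 129Sv array 2 or 3 or B6 array 2 or 3, adjusted p 0.0981 to 0.114).

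In the other direction, 9 of the 15 leading genes were under 16 in 129Sv and have only a bound. Zfp874a, a zinc finger gene, read 3.85, 4.14 and 3.49 on the 129Sv arrays and 193, 276 and 234 on the B6 arrays (at least 14.5-fold higher in B6, log2 difference -5.92 ± 0.81, limma adjusted p = 2.26e-04). Trim12a, of a TRIM family linked to antiviral defence, read 3.91, 3.75 and 4.06 on the 129Sv arrays and 169, 193 and 111 on the B6 arrays (at least 9.59-fold, -5.30 ± 0.23, adjusted p = 2.86e-09). For both, all 129Sv arrays lay below 16 and all B6 arrays above it. Abcb10, which encodes a transporter of the inner mitochondrial membrane, read 40.0, 43.4 and 37.4 on the 129Sv arrays and 871, 1007 and 851 on the B6 arrays (22.6-fold, -4.50 ± 0.27, adjusted p = 8.35e-08). B3galt6, a galactosyltransferase gene of proteoglycan synthesis, read 31.2, 31.6 and 36.3 on the 129Sv arrays and 605, 722 and 693 on the B6 arrays (20.4-fold, -4.35 ± 0.16, adjusted p = 4.24e-10). Galc, the lysosomal galactosylceramidase gene, read 5.02, 5.64 and 5.31 on the 129Sv arrays and 81.8, 148 and 127 on the B6 arrays (at least 7.21-fold, -4.44 ± 0.35, adjusted p = 1.39e-06). No array of either strain fell into the range of the other for these genes, which the choice of leading genes required.

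Mro, a gene active in Sertoli cells of the developing testis, was 16.3-fold higher in B6, with 63.7, 41.7 and 41.6 on the 129Sv arrays and 611, 938 and 831 on the B6 arrays (log2 difference -4.03 ± 0.25, limma adjusted p = 1.43e-07). Khdc1a, a KH domain gene best known from oocytes, was 14.0-fold higher, and Pdgfd, a platelet-derived growth factor gene, 11.7-fold. Also higher in B6 were the angiogenin gene Ang (at least 6.15-fold), the zinc finger gene Zfp429 (at least 4.85-fold), the molybdenum cofactor gene Mocs1 (at least 2.90-fold), the sulfatase gene Arsk (10.9-fold) and the plasma glycoprotein gene Apoh (at least 3.05-fold). 2610507I01Rik (at least 5.59-fold) and E330017L17Rik (at least 3.24-fold) have provisional names. A gene below 16 in one strain could enter the test only through arrays of the other strain or of the knockouts.

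**Figure D2:**
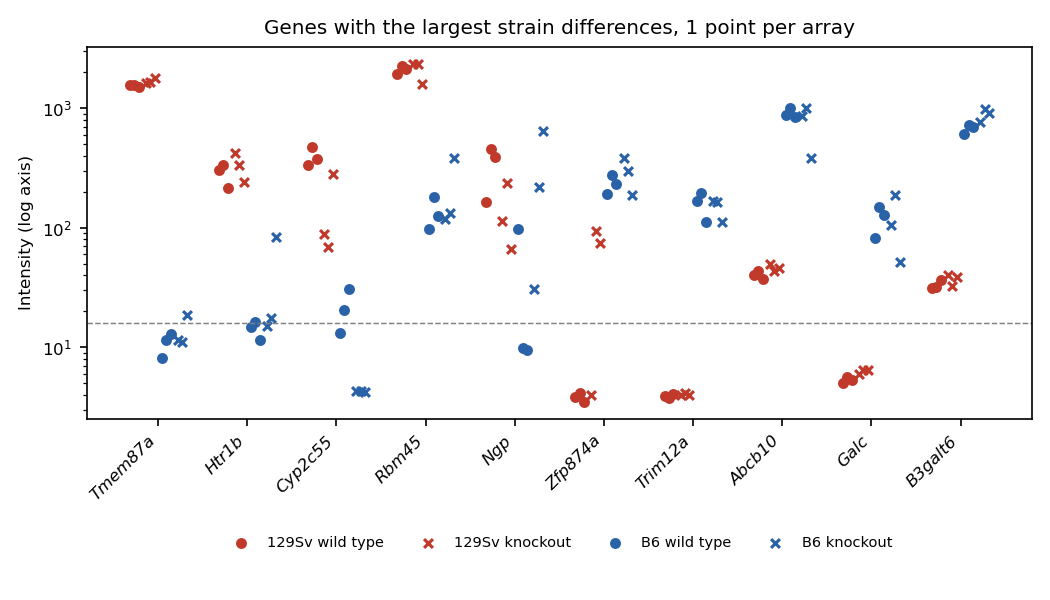
Intensity on each array (log axis, 1 point per array) for the 5 genes with the largest excess in 129Sv and the 5 with the largest excess in B6. Circles are wild types, crosses are Dmrt1 knockouts, red is 129Sv, blue is B6, and the dashed line marks the intensity of 16 used as the lower limit of a usable signal. Tmem87a lay at 1505 to 1563 on the 129Sv wild-type arrays and at 8.12 to 12.9 on those of B6.

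Of the 30 leading genes, 22 had 1 tested probe set and 8 had several. A probe set can also respond to a sequence variant of a strain, which cannot be told apart here from the transcript level. All tested probe sets of Igsf23, Ang, 2610507I01Rik and Pdgfd were called in the direction given above, in a fit of all tested probe sets. The other Galc probe set differed by -0.54 ± 0.18 (limma adjusted p = 0.0701), against -4.44 for the first. Those of Abcb10 and B3galt6 differed by -1.20 ± 0.22 (adjusted p = 0.00336) and -1.79 ± 0.25 (adjusted p = 0.000438). Over all 24820 tested probe sets, named or not, 3369 were called (13.6%), 60.6% of them higher in 129Sv. Of 5581 genes with several tested probe sets, 1339 had at least 1 called. All probe sets of the gene were called in the same direction for 194 of these, all had the same sign for 835, and 68 had probe sets called in opposite directions.

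In the same fit of probe sets, Arsk had a probe set lower in 129Sv by 3.44 ± 0.54 on the log2 scale and another higher there by 1.67 ± 0.21 (limma adjusted p = 0.00107 and 0.000236). Xaf1, a proapoptotic gene induced by interferon, had probe sets at 2.90 ± 0.28 and -2.24 ± 0.47 (adjusted p = 2.05e-05 and 0.00722). Imp4, which encodes a protein of ribosomal RNA processing, had probe sets at -2.99 ± 0.22 and 1.92 ± 0.18, while its brightest differed by 0.43. For Rgs5, a regulator of G protein signalling made in pericytes, the values were 1.87 ± 0.30 and -1.80 ± 0.37, and its brightest probe set differed by 0.10. Rbm39, a splicing factor gene with 12 tested probe sets, had calls at -3.97, -1.59 and 1.95, and its brightest differed by -0.14. The strain direction of these genes thus depended on the probe set.

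Among genes of male germ cell differentiation and the piRNA pathway, every call was towards 129Sv. Of 17 tested genes of this list, 8 were called higher in 129Sv and none in B6, a share of 47.1% beside 10.9% of all tested genes. The list was chosen with earlier results of these data known, which may have raised this share. All 17 log2 differences were positive, their median being 0.74 beside 0.06 for all genes, and 12 of the 17 had no overlap beside 40.7% of all genes. In bulk tissue, fewer cells of a type and less RNA per cell cannot be told apart. Zbtb16, which encodes PLZF, a factor of spermatogonial stem cells, read 91.4, 99.8 and 118 on the 129Sv arrays and 23.9, 19.6 and 26.6 on the B6 arrays (4.43-fold, 2.15 ± 0.26, limma adjusted p = 1.06e-04). Exd1, a partner of Tdrd12 in piRNA production, read 549, 467 and 608 on the 129Sv arrays and 93.9, 156 and 193 on the B6 arrays (3.80-fold, 1.93 ± 0.31, adjusted p = 9.39e-04). Gpat2, a mitochondrial acyltransferase gene required for piRNA formation, read 1506, 2659.6 and 1629 on the 129Sv arrays and 518, 444 and 884 on the B6 arrays (3.18-fold, 1.67 ± 0.30, adjusted p = 0.00199). The 3 genes were each higher on all 129Sv arrays than on any B6 array.

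Morc1, a nuclear ATPase gene of transposon silencing, read 2296, 3265 and 2535 on the 129Sv arrays and 1034, 1018 and 1387 on the B6 arrays (2.35-fold, 1.23 ± 0.19, limma adjusted p = 7.67e-04). The Tudor domain genes Tdrd7 (2.20-fold) and Tdrd5 (1.45-fold), the helicase gene Mov10l1 (1.67-fold) and the germinal granule gene Asz1 (1.43-fold) were also called. Differences of the genes that did not pass were 0.26 ± 0.15 for Piwil2, 0.47 ± 0.28 for Piwil4, 0.92 ± 0.35 for Tdrd1 and 1.48 ± 0.48 for Tdrd9 (adjusted p 0.247, 0.272, 0.0837 and 0.0500401). Dnmt3l, the cofactor of DNA methylation in these cells, read 1890.2, 2267 and 2096 on the 129Sv arrays and 571, 711 and 1604 on the B6 arrays and did not pass either (adjusted p = 0.112); its B6 array 3 stood near the 129Sv range, and without it the adjusted p was 0.0478. Calls lost when 1 array was left out were those of Tdrd7 (without 129Sv array 2 or B6 array 1, adjusted p 0.0658 to 0.0773), Tdrd5 (without 129Sv array 1, 2 or 3 or B6 array 1 or 2, adjusted p 0.0515 to 0.17) and Mov10l1 (without 129Sv array 1, 2 or 3 or B6 array 1 or 2, adjusted p 0.0595 to 0.21). The same applied to Asz1 (without 129Sv array 2 or B6 array 1, adjusted p 0.0537 to 0.0588). The list's count of 8 fell to 4 without 129Sv array 2 and 4 without B6 array 1, and was 13 in a fit of the 6 wild-type arrays alone.

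**Figure D3:**
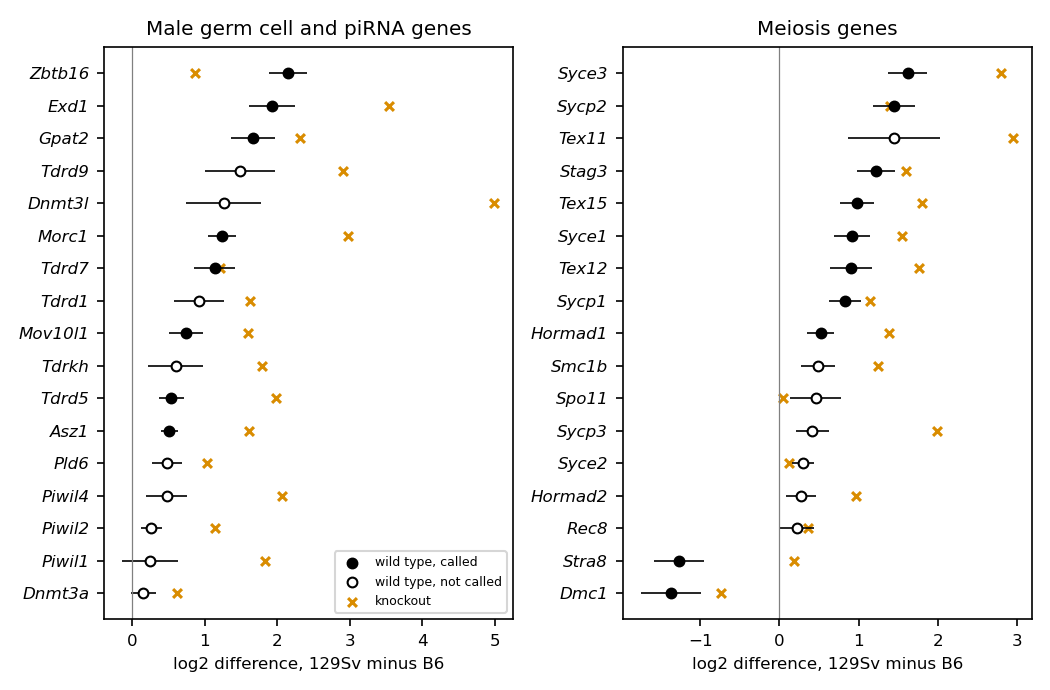
Log2 difference between 129Sv and B6 for the 17 male germ cell and piRNA genes (left) and the 17 meiosis genes (right). Black symbols are wild types with bars of 1 SE (n = 3 arrays per strain), filled where the gene was called, and orange crosses are Dmrt1 knockouts. All 17 genes on the left lie right of 0, as do 15 of the 17 on the right.

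Meiosis genes were called in both directions. Of 17 tested, 8 were called higher in 129Sv (47.1%, beside 10.9% of all genes) and 2 higher in B6, with a median log2 difference of 0.52. This list too was chosen with earlier results of these data known. Syce3, a central element protein gene of the synaptonemal complex, read 143, 146 and 162 on the 129Sv arrays and 38.6, 70.1 and 43.1 on the B6 arrays (3.07-fold, 1.62 ± 0.25, limma adjusted p = 5.98e-04). Stag3, the meiotic cohesin subunit gene, read 781, 957 and 847 on the 129Sv arrays and 346, 263 and 548 on the B6 arrays (2.33-fold, 1.22 ± 0.24, adjusted p = 0.00368). Tex15, a gene of meiotic recombination that also acts in transposon silencing, read 4032, 4712 and 3652 on the 129Sv arrays and 1942, 1638 and 2850.0 on the B6 arrays (1.97-fold, 0.98 ± 0.21, adjusted p = 0.006). The synaptonemal complex genes Sycp2 (2.72-fold), Sycp1 (1.77-fold), Syce1 (1.88-fold) and Tex12 (1.87-fold) and the axis gene Hormad1 (1.43-fold) were also higher in 129Sv.

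The B6 excess concerned Stra8, the gene that retinoic acid switches on at meiotic entry, with 16.2, 19.9 and 18.1 on the 129Sv arrays and 69.2, 39.9 and 29.0 on the B6 arrays (2.40-fold, -1.26 ± 0.32, limma adjusted p = 0.0143), and Dmc1, the meiotic recombinase gene, with 29.8, 35.1 and 39.2 on the 129Sv arrays and 107, 68.5 and 95.7 on the B6 arrays (2.57-fold, -1.36 ± 0.38, adjusted p = 0.0233). Both were dim, and the 129Sv arrays of Stra8 lay close to 16. The test no longer passed with 1 array less for Sycp1 (without 129Sv array 2 or 3 or B6 array 2, adjusted p 0.0539 to 0.0742), Syce1 (without 129Sv array 2, adjusted p 0.0732) and Tex12 (without 129Sv array 2 or 3 or B6 array 1 or 2, adjusted p 0.0723 to 0.134). The same applied to Hormad1 (without 129Sv array 2 or 3 or B6 array 1 or 2, adjusted p 0.129 to 0.176), Stra8 (without B6 array 1, adjusted p 0.0762) and Dmc1 (without 129Sv array 1 or 2 or B6 array 1 or 3, adjusted p 0.0598 to 0.0935). The 8 meiosis calls in favour of 129Sv became 4 without 129Sv array 2 and 5 without 129Sv array 3 or B6 array 2.

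Of the 16 genes of both lists called higher in 129Sv, 13 had a promoter entry in RefSeq (GRCm38.p6), searched over the 250 bases before the start. The E-box letters CACGTG, the same on both strands, stood in 5 of the 13 (38.5%), in 8 of 15 (53.3%) of the other tested members with an entry, in 9.88% of 10269 tested genes and in 6.02% of all 32851 entries. The letters GCGGGAA, searched on both strands, stood in 3 of the 13 (23.1%), 3 of the 15 (20.0%), 8.19% of tested genes and 3.82% of entries. Neither motif contains the other. Such a match describes letters and no binding. The windows of 150 bases before the start of Sycp1 (chr3:102936101-102936250, minus strand), Tex12 (chr9:50561269-50561418, minus strand) and Hormad1 (chr3:95559527-95559676, plus strand) are printed on the gene's strand. These called genes hold the motif within that window and encode proteins of the meiotic chromosome axis or synaptonemal complex. Stag3 and Mov10l1 hold it outside such a window, 170 and 246 bases before the start. Capitals mark CACGTG.

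Sycp1: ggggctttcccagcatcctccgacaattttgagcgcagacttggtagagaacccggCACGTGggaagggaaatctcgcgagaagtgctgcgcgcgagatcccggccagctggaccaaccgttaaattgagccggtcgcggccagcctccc
Tex12: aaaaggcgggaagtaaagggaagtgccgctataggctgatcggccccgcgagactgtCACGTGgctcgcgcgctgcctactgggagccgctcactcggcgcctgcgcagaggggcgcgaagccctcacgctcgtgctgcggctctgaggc
Hormad1: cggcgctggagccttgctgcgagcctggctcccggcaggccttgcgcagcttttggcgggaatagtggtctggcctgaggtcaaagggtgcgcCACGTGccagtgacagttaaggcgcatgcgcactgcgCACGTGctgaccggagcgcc

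Of 12 tested general germ cell markers, Taf7l, Rnf17 and Brdt were called higher in 129Sv and Kit higher in B6 (33.3%, beside 16.1% of all tested genes), and the list had a median of 0.51. Ddx4, the germ cell helicase gene, read 4059, 3851 and 4216 on the 129Sv arrays and 3060.1, 2859 and 3223 on the B6 arrays and differed by 0.41 ± 0.15 (limma adjusted p = 0.0867). Dazl, an RNA-binding protein gene of germ cells, differed by 0.29 ± 0.20 (adjusted p = 0.361), Mael by 0.30 ± 0.14 (0.16) and Dnd1, whose loss causes teratomas in 129 mice, by 0.74 ± 0.25 (0.0539). Arrays of the strains did not overlap for 11 of the 12, beside 40.7% of all genes, while 8 of the 12 did not pass the test. Rnf17, a Tudor domain gene, was 1.71-fold higher, the TFIID subunit gene Taf7l 1.87-fold and the bromodomain gene Brdt 2.21-fold higher in 129Sv. Single arrays decided the calls of Brdt (without 129Sv array 1, 2 or 3 or B6 array 1 or 2, adjusted p 0.0519 to 0.173).

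Pluripotency genes had a median difference of -0.03 over 26 tested genes, with 2 called higher in 129Sv and 1 higher in B6 (11.5% in all, beside 16.1%). Klf4, a reprogramming factor gene, read 370.3, 372 and 361 on the 129Sv arrays and 118, 124 and 142 on the B6 arrays (2.88-fold, 1.53 ± 0.24, limma adjusted p = 7.98e-04). Utf1, a chromatin protein gene of stem cells, was 1.80-fold higher in 129Sv (0.85 ± 0.23, adjusted p = 0.0219). L1td1, an RNA-binding protein gene of pluripotent cells, read 25.4, 16.9 and 12.8 on the 129Sv arrays and 58.7, 54.1 and 33.2 on the B6 arrays and was 2.68-fold higher in B6 (-1.42 ± 0.43, adjusted p = 0.034). The core factors did not pass: Pou5f1 differed by 0.60 ± 0.21 (adjusted p = 0.0613), Nanog by -0.63 ± 0.22 (0.0658) and Sox2 by -0.30 ± 0.25 (0.445). Not all calls survived the loss of 1 array, namely those of Utf1 (without 129Sv array 2 or B6 array 1 or 2, adjusted p 0.0528 to 0.117) and L1td1 (without 129Sv array 2 or 3 or B6 array 1 or 2, adjusted p 0.106 to 0.127).

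Of 21 genes of germ cell survival and G1 arrest, 4 were called (19%), a share near the 16.1% of all tested genes. Rb1, the retinoblastoma gene that holds cells in G1, read 585, 617 and 603 on the 129Sv arrays and 275, 272 and 247 on the B6 arrays (2.27-fold higher in 129Sv, 1.18 ± 0.17, limma adjusted p = 3.51e-04). Cdkn2b, which encodes the CDK inhibitor p15, read 78.3, 84.6 and 60.8 on the 129Sv arrays and 19.2, 27.3 and 30.0 on the B6 arrays (2.94-fold, 1.56 ± 0.25, adjusted p = 8.43e-04). Cdkn1b, which encodes the inhibitor p27, read 1560.0, 1826 and 1945 on the 129Sv arrays and 3034, 2758 and 3065 on the B6 arrays and was 1.67-fold higher in B6 (-0.74 ± 0.13, adjusted p = 0.00138). These 3 calls held without any 1 of the 6 arrays, though Cdkn1b did not pass when its probe sets were averaged (adjusted p = 0.0798). Kit, the receptor gene of early germ cells, was 2.24-fold higher in B6, with 65.0, 41.5 and 53.5 on the 129Sv arrays and 139, 102 and 114 on the B6 arrays (-1.16 ± 0.23, adjusted p = 0.00409), while its ligand gene Kitl differed by -0.13 ± 0.13 (0.55). Of 23 cell division genes, Plk1 (1.60-fold) and Ttk (1.38-fold), both mitotic kinase genes, were called higher in 129Sv and the cyclin gene Ccna2 (1.34-fold) higher in B6, with a list median of 0.03 and a share called of 13%. Leaving out 1 array ended the call of Plk1 (without 129Sv array 2 or B6 array 1 or 2, adjusted p 0.0551 to 0.0957) and Ttk (without 129Sv array 1, 2 or 3 or B6 array 1, 2 or 3, adjusted p 0.0641 to 0.182).

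Marker genes of testis somatic cells were called at 11.5% for Sertoli cells, 18.2% for interstitial and peritubular cells and 0% for fetal Leydig and endothelial cells, beside 16.1% of all tested genes. Of 26 Sertoli cell genes, Hsd17b3 was 1.38-fold higher in 129Sv, and Mro and Cbln4 (1.76-fold) were higher in B6, with a list median of -0.13. Hsd17b3, the enzyme gene for the last step of testosterone synthesis, read 2534, 2668 and 2587 on the 129Sv arrays and 1872, 1889.7 and 1901 on the B6 arrays (0.46 ± 0.12, limma adjusted p = 0.0218). Sox9, the Sertoli cell transcription factor gene, differed by -0.23 ± 0.17 (adjusted p = 0.402) and Amh, the gene of anti-Müllerian hormone, by -0.32 ± 0.27 (0.455). None of 6 fetal Leydig genes was called, the steroid enzyme gene Cyp17a1 differing by -0.11 ± 0.16, and none of 11 endothelial, 14 Nodal and activin or 8 hedgehog genes. Among 11 interstitial and peritubular genes, the smooth muscle myosin gene Myh11 was 1.69-fold higher in 129Sv and the proteoglycan gene Lum 1.93-fold higher in B6, with 315, 418 and 421 on the 129Sv arrays and 989.6, 631 and 641 on the B6 arrays. Of 10 ovarian somatic genes, Nr0b1, which encodes DAX1, was 1.89-fold higher in B6 (-0.92 ± 0.19, adjusted p = 0.00436). Calls lost when 1 array was left out were those of Hsd17b3 (without 129Sv array 2 or 3 or B6 array 1 or 2, adjusted p 0.0607 to 0.0784) and Myh11 (without 129Sv array 1, 2 or 3 or B6 array 1, 2 or 3, adjusted p 0.0613 to 0.182).

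Among markers of other tissues, 33.3% of mesonephros, 25% of adrenal cortex and 37.5% of neuron, glia and muscle genes were called, beside 16.1% of all tested genes, on lists of few tested genes. Of 6 mesonephros genes, the sodium pump regulator gene Fxyd2 was 2.25-fold higher in 129Sv and the homeobox gene Emx2 1.55-fold higher in B6. Fxyd2 was not called when probe sets with the suffix _s_at or _x_at were set aside. Of 4 adrenal cortex genes, Cyp21a1, the steroid hydroxylase gene, was 2.87-fold higher in 129Sv (1.52 ± 0.34, limma adjusted p = 0.00778), whereas Cyp11b1 differed by -1.07 ± 0.41 (0.0917). Of 8 neuron, glia and muscle genes, the glial factor gene Sox10 (1.85-fold) and the embryonic myosin gene Myh3 (2.22-fold) were higher in 129Sv, and Tnni1, the slow muscle troponin gene, read 73.4, 74.7 and 60.3 on the 129Sv arrays and 256, 379 and 263 on the B6 arrays (4.26-fold higher in B6, -2.09 ± 0.18, adjusted p = 3.83e-06). Each of these lists held calls beside members that did not pass. The test no longer passed with 1 array less for Emx2 (without 129Sv array 1 or 2 or B6 array 1 or 2, adjusted p 0.061 to 0.0945).

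Blood cell genes varied between arrays of a strain. All 15 macrophage genes had negative differences, with a median of -0.52 beside 0.06 for all tested genes, but none was called. Their summed intensity was 2331, 2521 and 3238 on the 129Sv arrays and 5462, 5283 and 2635 on the B6 arrays, so that B6 array 3 lay within the 129Sv range. C1qb, a complement gene of macrophages, read 877, 881 and 1342 on the 129Sv arrays and 2094, 2369 and 908 on the B6 arrays (-0.71 ± 0.29, limma adjusted p = 0.112). Between the knockouts, 14 of the 15 macrophage genes had the same sign as in wild types, with a median of -0.74. There 8 of the 15 were called higher in B6, beside 13.8% of all tested genes. None of 5 red blood cell genes was called, nor the only tested gene of 7 lymphocyte and mast cell markers. Neutrophil granule genes were chosen after their values were seen, because Ngp and Camp were among the leading genes. Of 8 such genes, Ngp, Camp, Lcn2, Ltf and S100a9 were called higher in 129Sv, and S100a8, Mpo and Elane did not pass. Of all tested genes, 10.9% were called higher in 129Sv, but Ngp and Camp were listed because they had been called. Their summed intensity was 7348, 11077 and 13073 in 129Sv and 7688, 3459 and 1500.5 in B6, with B6 array 1 inside the 129Sv range. Camp read 156, 459 and 547 on the 129Sv arrays and 135, 21.8 and 19.6 on the B6 arrays (3.14 ± 0.91, adjusted p = 0.0297), and Lcn2, an iron-sequestering protein gene, 103, 232 and 272 on the 129Sv arrays and 70.3, 17.8 and 29.5 on the B6 arrays (2.48 ± 0.63, adjusted p = 0.0153). On the knockout arrays the sums were 5451, 8987 and 5699 in 129Sv and 3249.9, 10361 and 15772 in B6. The part of blood cells in other strain differences was not tested. Single arrays decided the calls of Camp (without 129Sv array 2 or 3 or B6 array 2 or 3, adjusted p 0.0981 to 0.114) and Lcn2 (without 129Sv array 2 or 3 or B6 array 2, adjusted p 0.0626 to 0.0776).

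Genes known for strain alleles were called at 45.5% and interferon and MHC genes at 33.3%, both in mixed directions, beside 16.1% of all tested genes. Of 11 tested genes known for variation between inbred strains, Glo1, Crb1 and Wdfy1 were higher in 129Sv and Ide and Apoa2 higher in B6. Glo1, the glyoxalase gene, read 6771, 6851 and 7036 on the 129Sv arrays and 4982, 5534 and 5556 on the B6 arrays (1.29-fold, 0.36 ± 0.07, limma adjusted p = 0.00368), and its other 3 probe sets were higher in 129Sv by 0.48 to 1.01, 2 of them past the threshold. Wdfy1, an endosomal protein gene, read 885, 809 and 931 on the 129Sv arrays and 177, 109 and 638 on the B6 arrays (1.92 ± 0.43, adjusted p = 0.0076). Its B6 array 3 stood well above the other B6 arrays and near the 129Sv ones. Of 18 interferon and MHC genes, the class II gene H2-Aa (2.07-fold), Ifi202b (at least 1.51-fold) and Oas1a (1.74-fold) were higher in 129Sv. Bst2, which encodes the antiviral protein tetherin, read 674, 514 and 477 on the 129Sv arrays and 1241, 1277 and 1268 on the B6 arrays (2.30-fold higher in B6, -1.20 ± 0.17, adjusted p = 3.82e-04), and higher there too were Trim30a (1.63-fold) and Trim12a. Not all calls survived the loss of 1 array, namely those of Ide (without 129Sv array 2 or B6 array 2, adjusted p 0.0516 to 0.0677), Apoa2 (without 129Sv array 1, 2 or 3 or B6 array 2 or 3, adjusted p 0.0602 to 0.114) and H2-Aa (without 129Sv array 2 or B6 array 1, adjusted p 0.0525 to 0.06). The same applied to Oas1a (without 129Sv array 2 or 3 or B6 array 1, 2 or 3, adjusted p 0.0741 to 0.173) and Trim30a (without 129Sv array 2 or 3 or B6 array 1 or 2, adjusted p 0.0527 to 0.159).

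Of the metabolic and regulatory lists, detoxification genes were called at 18.8%, cholesterol synthesis genes at 14.3%, imprinted genes at 5.56% and immediate early and heat shock genes at 11.8%, beside 16.1% of all tested genes. Of 32 detoxification genes, the glutathione transferase genes Gsto2 (3.49-fold) and Mgst2 (1.95-fold) and Glo1 were higher in 129Sv, and Gsta2 (1.48-fold), Gsta3 (1.84-fold) and Gstm6 (1.51-fold) were higher in B6. Gsto2 read 116, 117 and 107 on the 129Sv arrays and 25.3, 39.6 and 34.3 on the B6 arrays (1.80 ± 0.26, limma adjusted p = 3.84e-04). Of 14 cholesterol synthesis genes, Cyp51 (1.26-fold) and Sc5d (1.61-fold) were called, both higher in B6. Of 18 imprinted genes, Igf2r, the receptor gene that clears IGF2, was 1.35-fold higher in B6. Of 17 immediate early and heat shock genes, Egr2 was 2.29-fold higher in 129Sv and Jun 1.70-fold higher in B6, with a list median of 0.24. Of 3 tested sex chromosome genes, the Y-linked demethylase gene Kdm5d was 1.52-fold higher in B6. Leaving out 1 array ended the call of Mgst2 (without 129Sv array 1, 2 or 3 or B6 array 1, adjusted p 0.0554 to 0.105), Gsta2 (without 129Sv array 2 or 3 or B6 array 1 or 2, adjusted p 0.0818 to 0.158) and Gsta3 (without 129Sv array 2 or 3 or B6 array 2, adjusted p 0.0531 to 0.115). The same applied to Gstm6 (without 129Sv array 2 or 3 or B6 array 2 or 3, adjusted p 0.0568 to 0.0763), Cyp51 (without 129Sv array 1 or 2 or B6 array 1, 2 or 3, adjusted p 0.076 to 0.172) and Sc5d (without 129Sv array 1 or 2 or B6 array 1, 2 or 3, adjusted p 0.0511 to 0.0919). Others were Igf2r (without 129Sv array 2 or B6 array 1, adjusted p 0.056 to 0.0747), Egr2 (without 129Sv array 1 or 2 or B6 array 1, adjusted p 0.0621 to 0.0821) and Kdm5d (without 129Sv array 3 or B6 array 1, adjusted p 0.0614 to 0.0637).

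**Figure D4:**
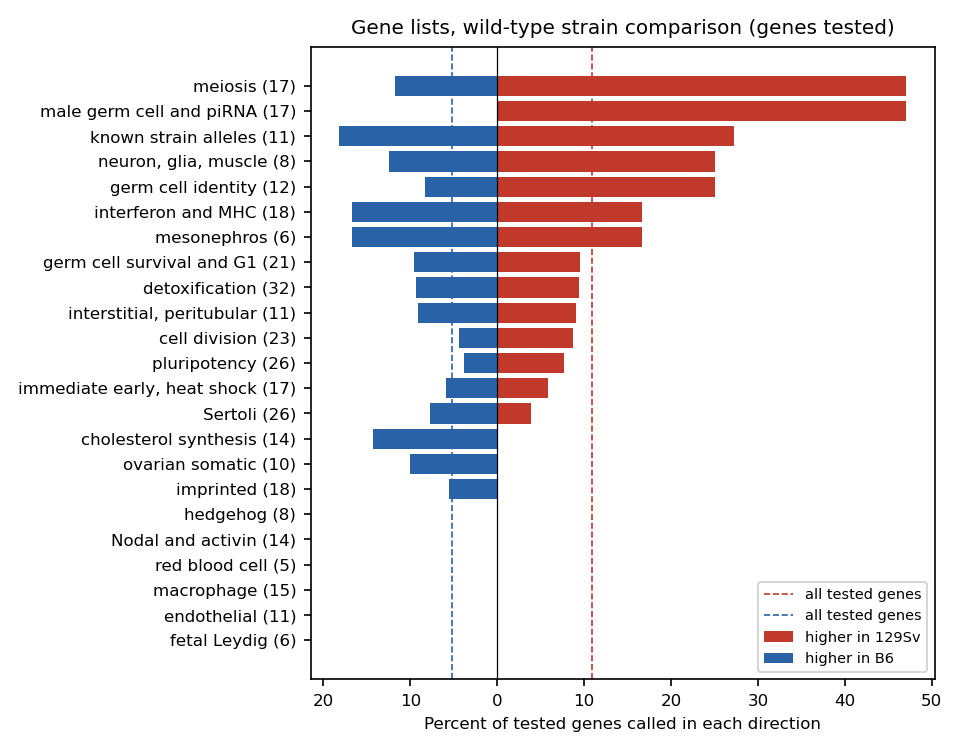
Percent of the tested genes of each list that were called higher in 129Sv (red, right) or higher in B6 (blue, left) in the wild-type comparison, with the number tested in brackets; lists with fewer than 5 tested genes are left out. Dashed lines mark all 12726 tested genes, at 10.9% and 5.19%, and the meiosis and the male germ cell and piRNA lists reach 47.1% to the right. Lists were chosen with earlier results of these data known.

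The knockout arrays are other samples than the wild types, but B6 wild types 1 and 2 share the first number of their titles, of unstated meaning, with B6 knockouts 1 and 2. On 129Sv knockout arrays 2 and 3 several strain-marking genes, such as Zfp874a with 3.94, 94.5 and 74.9 on the 3 arrays, read towards B6, and whether those animals were of mixed background was not tested. Without both, an alternative chosen after seeing the data, 1979 genes were called in wild types. The Actb ratio was 5.24 on 129Sv knockout array 1 and 6.30 on B6 knockout array 3, beside 1.99 to 3.91 in the wild types. These arrays enter the knockout contrast and the shared spread. Without the knockout arrays of highest ratio, a planned setting, 2921 genes were called in wild types. Between the knockouts, with all arrays kept, 4345 genes were called (34.1%), 2585 of them higher in 129Sv (20.3% of all tested) and 1760 higher in B6 (13.8%). Of the 2054 genes called in wild types, 1961 (95.5%) had the same sign in knockouts, beside 70.7% of all tested genes. Both contrasts called 1454 genes in the same direction, which is 70.8% of the wild-type calls and 33.5% of the knockout calls, and 8 in opposite directions. Mro, above 16 on all arrays, differed by -4.18 in knockouts against -4.03 in wild types, and Abcb10 by -3.90 against -4.50. Tmem87a read 1641, 1645 and 1779.7 in the 129Sv knockouts and 11.4, 10.9 and 18.4 in those of B6. All 17 male germ cell and piRNA genes were called higher in 129Sv in the knockouts, with a median of 1.80, as were 12 of the 17 meiosis genes, with a median of 1.38. This was not particular to those lists. Of 12 general germ cell markers 11 were called higher in 129Sv knockouts and 1 in B6 (median 1.45), and 18 of 26 pluripotency genes were called higher in 129Sv (median 1.10). The knockout values hold any effect of Dmrt1 loss that differed between the strains as well as the strain difference itself.

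The size of the strain difference itself differed between knockouts and wild types for 167 genes (1.31%), 142 of them shifted towards 129Sv in knockouts, and 74 of the 167 were also called in wild types. The count fell to 41 without 129Sv array 1, 73 without 129Sv array 2, 50 without 129Sv array 3, 48 without B6 array 2 and 73 without B6 array 3, and to 34 without 129Sv knockout arrays 2 and 3, chosen after seeing the data. The changes below that involve readings under 16 have no exact size. Svs4 differed by 3.37 in wild types and by 0.32 in the knockouts, where all 6 arrays lay under 16, a change of -3.05 ± 0.62 (limma adjusted p = 0.0302). Rph3a, a vesicle trafficking gene, was 5.71-fold higher in 129Sv wild types, with 114, 96.3 and 104 on the 129Sv arrays and 13.1, 22.6 and 20.7 on the B6 arrays, and read under 16 on all 6 knockout arrays, 3.97, 4.45 and 4.49 in 129Sv and 4.26, 3.99 and 4.09 in B6 (change -2.45 ± 0.31, adjusted p = 0.00172). Klrb1a, a lectin receptor gene of natural killer cells, differed by 2.92 in wild types and read 21.6, 11.6 and 13.3 in 129Sv and 7.15, 10.4 and 12.9 in B6 knockouts, under 16 on 5 of 6 arrays. Asb17, a gene of the testis, differed by 2.43 in wild types and was under 16 on all 6 knockout arrays. Gm364 went from 0.74 to 4.05, with 9.49, 13.0 and 18.2 in the B6 knockouts (change 3.31 ± 0.31, adjusted p = 2.27e-04). Calls lost when 1 array was left out were those of Gm364 (without 129Sv array 1, 2 or 3 or B6 array 1 or 2, adjusted p 0.0626 to 0.131).

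**Figure D5:**
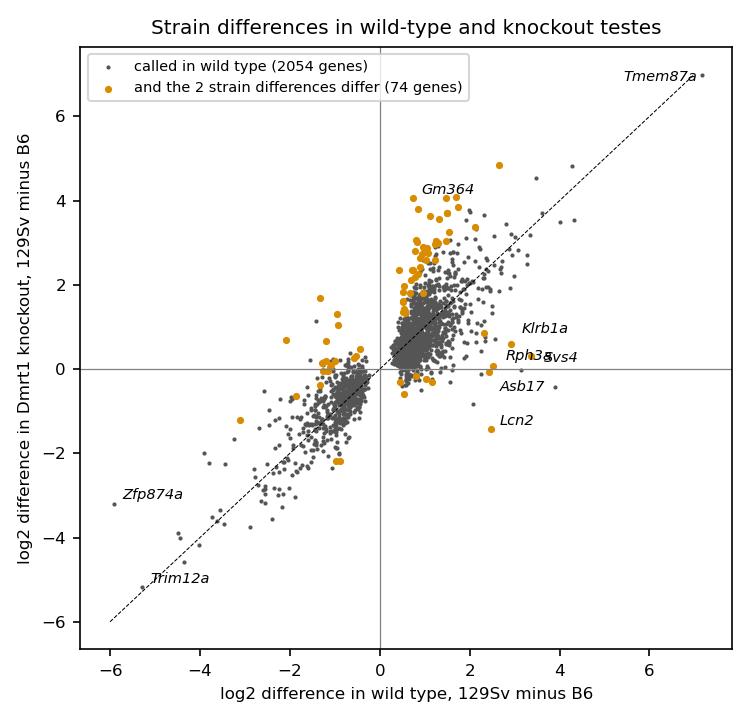
Log2 difference between 129Sv and B6 in wild types (x axis) and in Dmrt1 knockouts (y axis) for the 2054 genes called in wild types, 3 arrays per group. The dashed line marks equal differences; 1961 genes have the same sign on both axes, and the 74 orange genes had strain differences that differed between knockouts and wild types.

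Called genes lay on every autosome and on X, with shares between 12.0% on chromosome 10 and 19.3% on chromosome 3. Dim genes were called more often than bright ones, 22.6% of genes with a mean log2 level under 5 and 6.55% of those at 11 or more. In RefSeq order, 29 runs of 3 or more neighbouring tested genes were called in the same direction, 21 of them higher in 129Sv. Of all calls, 67.8% were higher in 129Sv. Whether there were more runs than calls spread independently would give was not tested. The longest runs had 4 genes. In one on chromosome 9, Pcbp4 (1.76-fold), Parp3 (3.65-fold), Rrp9 (1.74-fold) and Tex264 (1.63-fold) were all higher in 129Sv. Parp3, a poly(ADP-ribose) polymerase gene of DNA repair, read 86.8, 91.8 and 82.1 on the 129Sv arrays and 19.1, 22.7 and 30.9 on the B6 arrays (1.87 ± 0.27, limma adjusted p = 3.30e-04). On chromosome 6, Kbtbd2 (1.92-fold), Fkbp9 (1.20-fold), Nt5c3 (1.97-fold) and Ppm1k (1.55-fold) were all higher in B6. Ppm1k was not called when the probe sets of a gene were averaged, and its log2 difference ranged from -0.72 to -0.05 over all settings tried.

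On chromosome 7, Slc5a2, Rusf1, Rgs10 and Tial1 were higher in B6 by 2.05-fold, 2.21-fold, 2.16-fold and 1.26-fold, and Abcc8, Ush1c, Sergef and Tph1 were higher in 129Sv by at least 1.5-fold, at least 1.67-fold, 1.70-fold and 1.94-fold. Rgs10, a regulator of G protein signalling, read 735, 628 and 633 on the 129Sv arrays and 1403, 1537 and 1368 on the B6 arrays (-1.11 ± 0.14, limma adjusted p = 1.02e-04). On chromosome 11, Myl4, Itgb3, Efcab3 and Mettl2 were higher in 129Sv by 1.69-fold, 1.53-fold, 3.84-fold and 1.74-fold. Myl4 and Mettl2 were not called when the probe sets of a gene were averaged. Efcab3, an EF-hand gene, read 100.1, 199.8 and 201 on the 129Sv arrays and 39.3, 25.6 and 70.4 on the B6 arrays. The test no longer passed with 1 array less for Rrp9 (without 129Sv array 2 or 3 or B6 array 1 or 2, adjusted p 0.0537 to 0.094), Tex264 (without 129Sv array 2 or B6 array 3, adjusted p 0.0539 to 0.0857) and Fkbp9 (without 129Sv array 1, 2 or 3 or B6 array 1 or 2, adjusted p 0.0561 to 0.134). The same applied to Ppm1k (without 129Sv array 2 or B6 array 1, adjusted p 0.0502 to 0.0624), Tial1 (without 129Sv array 1 or 2 or B6 array 1 or 3, adjusted p 0.0691 to 0.122) and Abcc8 (without 129Sv array 2 or 3 or B6 array 1 or 2, adjusted p 0.103 to 0.201). Others were Ush1c (without 129Sv array 3 or B6 array 1 or 2, adjusted p 0.0549 to 0.0788), Sergef (without 129Sv array 2 or 3 or B6 array 1, adjusted p 0.0595 to 0.117) and Tph1 (without 129Sv array 1, 2 or 3 or B6 array 1 or 2, adjusted p 0.0549 to 0.186). Further ones were Myl4 (without 129Sv array 1 or 2 or B6 array 1, adjusted p 0.0738 to 0.129) and Itgb3 (without 129Sv array 1 or 3 or B6 array 1 or 3, adjusted p 0.0745 to 0.124).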

How the data were processed

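The authors deposited linear intensities of 45101 probe sets per array, summarised with GCRMA per the submitters' processing notes (version: not given in the sources used here), a method that corrects background by probe sequence. Log2 was taken here of these deposited intensities. Groups came from the sample descriptions. Probe sets with 1 gene in the platform annotation (34958, 18193 genes) were named; 34754 matched RefSeq GRCm38.p6. A gene was represented by its probe set of highest mean and tested at a log2 value of at least 4 (intensity 16) in at least 3 of the 12 arrays. A model with a mean for each of the 4 groups was fitted by limma 3.58.1 (R 4.3.3; lmFit, and eBayes with trend), with Benjamini-Hochberg adjustment over 12726 genes and a threshold of 0.05. The contrasts were 129Sv minus B6 in wild types, in knockouts, and their difference. Errors are standard errors. The 3 arrays per group limit the precision, and arrays have no counted depth. Named genes were up to 15 per direction with the largest difference, past the threshold, without overlap and with the higher group's mean log2 at 5 or above, plus members of the gene lists, the longest runs of neighbours, up to 5 genes per direction with the largest difference of strain effects, and up to 5 genes with opposite probe sets. Members and lists were chosen with earlier results of these data known. Replicate numbers gave no sign of pairing between the 129Sv and B6 wild types, whose same-numbered arrays had deviations correlating at 0.017, -0.040 and -0.193. Wild types were not compared with knockouts in this way, although some share the first number of their titles. The fit was tested on simulated data with 200 changed genes, fewer than the 2054 called here. It recovered 30% of log2 differences of 0.5, 72% of those of 1, 98% of those of 2 and 100% of those of 4. Of its calls 6.25% were false, so a gene with a small difference that did not pass may still differ. Promoters came from RefSeq and were searched for letters only. Alternatives were other filters, probe set rules, normalisations, floors, weights, blocks, thresholds and arrays left out.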

Additional observations from a re-analysis of the deposited data

Results flagged for a closer look

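The strain difference was of another size in knockouts than in wild types for 167 genes, by a limma test of the difference itself. For the named genes among them, the change of the log2 strain difference (knockout minus wild type) was positive for Dnmt3l (3.73), Cdhr1 (3.61), Gm364 (3.31), Eras (3.28) and Sox3 (3.10), the first of which encodes a DNA methylation cofactor and the fourth a Ras protein of stem cells. It was also positive for Apoh (1.88), Morc1 (1.74), Taf7l (1.53), Tdrd5 (1.44), Asz1 (1.10) and Dmrt1 (1.08). Further positive changes were those of the pluripotency genes Zfp42 (2.91), Lin28a (2.14), Sox2 (1.79), Fbxo15 (1.69) and Nanog (1.67), the germ cell genes Gtsf1 (2.54) and Sycp3 (1.57), and Gbp3 (2.37), Cbr3 (2.13), Lef1 (1.21) and Trim34a (1.08). It was negative for Fxyd2 (-1.47), Klrb1a (-2.32), Rph3a (-2.45), Asb17 (-2.50), Svs4 (-3.05) and Lcn2 (-3.91). Dnmt3l read 1032, 899 and 1761 on the 129Sv knockout arrays and 17.7, 25.9 and 109.7 on those of B6. Svs4 read 4.42, 4.16 and 5.15 and 3.48, 3.43 and 4.07, below 16 in both strains. Changes are on the log2 values as deposited and are not exact where readings lay under 16, as for Cdhr1 on all 6 wild-type arrays (10.8, 14.9 and 11.0 in 129Sv, 7.39, 11.6 and 15.4 in B6) and for Sox3 on several B6 arrays (14.4, 18.4 and 12.4 in wild types, 14.8, 16.1 and 9.80 in knockouts). The same holds for Rph3a, Asb17, Klrb1a, Apoh, Gbp3 and Gm364.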

How the results depend on the processing

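Counts are given as genes called in wild types (2054), of those with the same sign in knockouts (1961), genes with differing strain differences (167), called probe sets (3369), and 129Sv calls in the male germ cell and piRNA list (8) and the meiosis list (8). Array weights gave 3461, 3225, 779 and 6430. A 2-fold minimum on the log2 values as deposited gave 739, 711, 1499 probe sets, 5 and 3. The mean of all probe sets gave 108 differing strain differences and turned Xaf1 to 0.33 (limma adjusted p = 0.392). It ended the calls of Rnf17, Asz1, Ccna2 and Cdkn1b, among others. A fit of the 6 wild-type arrays gave 2860 genes and 13 male germ cell genes, and has no value for results that need knockouts. With 1 wild-type array left out the ranges were 1074 to 1800, 1029 to 1730, 41 to 152, 1683 to 2759, 4 to 10 and 4 to 8. With the replicate block 1817 genes were called, 1770 of them among the 2054; among 126 genes followed, it ended 10 calls and added 1. Filters, scalings, a floor, no variance trend and a title number as a random block kept the count between 1582 and 2331. Leaving out the knockout arrays of highest Actb ratio gave 2921 genes. Chosen after seeing the data, the Actb ratio as a covariate gave 2496 genes; leaving out 129Sv array 2 and B6 array 3 together gave 944, 912, 45, 1353 probe sets and 4 meiosis genes; leaving out 129Sv knockout arrays 2 and 3 gave 34 differing strain differences. Of the list counts, 966 stayed within 1.5 times and 184 did not; the cause was not tested. Apart from left-out arrays and the 2-fold minimum, a setting ended at most 17 calls of the followed genes without a sign change. That was the mean of all probe sets, where the call of Xaf1 ended as well, with its sign reversed. Probe set rules do not apply to the probe set count. Ratios against a strain under 16 are bounds where the other strain was at 16 or more.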

Other observations

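Some genes with a large strain difference in wild types read between the strains, or at the other strain's level, on single knockout arrays. On a scale from 0, the wild-type mean of the array's own strain, to 1, that of the other strain, 9 of 30 leading genes exceeded 0.5 on 129Sv knockout array 2 and 6 on array 3, against 2 on array 1 and 1, 3 and 3 on the B6 knockout arrays. The 129Sv counts include Svs4 on every array, Cyp2c55 on arrays 1 and 2 and Dnah8 on array 2. Those genes read lower in the knockouts of both strains than in the wild types, so their positions need not reflect the other strain's level. Zfp874a read 3.94, 94.5 and 74.9 on the 129Sv knockout arrays, beside 3.85, 4.14 and 3.49 on the 129Sv wild types. Zfp429 read 5.64, 28.5 and 37.8 beside 4.93, 5.71 and 4.96, and Arsk 26.1, 168 and 158 beside 29.7, 33.9 and 35.9. Zfp874a, Zfp429 and Arsk lie on chromosome 13. Igsf23, Dnah8, 2610507I01Rik and E330017L17Rik, on chromosomes 7, 17, 11 and 4, also exceeded 0.5 on 129Sv knockout array 2. The knockout strain contrast and the spread shared by all contrasts include 129Sv knockout arrays 2 and 3, and a mixed background was not tested. Among gene families grouped by name after the values were seen, 37 of 310 Zfp genes were called (11.9%), 19 higher in 129Sv and 18 in B6, and 5 of 50 ribosomal protein genes (10.0%), beside 16.1% of all tested genes. Probe sets with no gene in the annotation were called at 12.5%, and 38.6% of those calls were higher in 129Sv, against 63.0% for probe sets with 1 gene.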
